A study of Homo sapiens with 24 samples.

Results

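The genome-wide distribution of 8-oxoguanine (OG) in wild-type HAP1 cells was described from the 3 WT columns of the deposited OG-seq table, WT1, WT2 and WT3. The columns were chosen by genotype alone. They come from 6 of the 24 samples of the series, 3 pull-down samples and 3 input samples, and no knockout column was used. The series compares WT with cells lacking the DNA glycosylases OGG1, MUTYH or both. HAP1 is a near-haploid human line derived from the leukemia line KBM-7, and near-haploid cells can turn diploid in culture. The WT samples came from clones C11 (R1 and R2) and C2 (R2), grown in IMDM with serum and antibiotics and given no treatment in the labels. No label links a column to a clone, so each was taken as 1 replicate (n = 3), and p values measure only the spread between these columns. Since C11 was sampled as R1 and R2, the 3 columns do not stand for 3 independent clones.

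OG arises when reactive oxygen species oxidize guanine, the base with the lowest redox potential. It can pair with adenine during replication, which turns a G:C pair into a T:A pair. OGG1 removes OG opposite cytosine, MUTYH removes the adenine placed opposite OG, and NUDT1 clears oxidized guanine nucleotides from the pool before they are built in. In OG-seq, OG in fragmented DNA is coupled to biotin by a chemical reaction, the fragments are pulled down on streptavidin and sequenced beside untreated input DNA. A window can hold more signal because more of its guanines are oxidized, because it holds more guanines, or because the cell holds more copies of it. The table does not separate these by itself.

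The table gives a value per 1 kb bin of GRCh38, the OG reads minus the scaled input reads. Here it was averaged over 1 Mb and 100 kb windows of the 22 autosomes and is given as reads per bin. The reads behind the values were recovered as whole numbers, 59598911 OG reads in WT1, 64842104 in WT2 and 86149897 in WT3, with 82588414 to 99271401 input reads. This came to 21.1, 22.98 and 30.5 OG reads per autosomal bin, of which 7.17, 7.51 and 8.49 were left after subtraction on average over 1 Mb windows. The recovered reads also gave a second scale, the log2 ratio of OG to input reads, set to 0 for the autosomes of each column. A gain in copies raises OG and input together, so it raises the value but not the log2 ratio. Reads are not independent molecules where duplicates stayed in, so counting errors below are lower limits.

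Input reads were examined before any OG result, since they follow the number of copies of a region. On chromosome 15, 29 consecutive 1 Mb windows, chr15:61000001-90000000, had 2.12 times the median input of the autosomes (1.51 to 2.45 times). HAP1 is known to carry an additional copy of a part of the long arm of chromosome 15, and the input showed such a gain. Outside this run, chr1:16000001-17000000 and chr5:1-1000000 were the other 1 Mb windows at 1.5 times the median or more, and these windows are called gained below. WT3 stood apart from the other columns on the long arm of chromosome 1. Over the 105 windows of chr1:144000001-249000000, its input relative to WT1 had a median of 1.11 and 5th and 95th percentiles of 1.081 and 1.185. WT2 relative to WT1 was 0.997 there, and WT3 relative to WT1 was 0.989 over the 121 windows before the centromeric gap of chromosome 1 and 0.996 over the other autosomes. The OG reads of WT3 were higher on that arm by the same ratio, 1.11. The log2 ratios of the arm were therefore close, -0.008 in WT1, 0.003 in WT2 and -0.002 in WT3. Without chromosome 1, an alternative added after the data were seen, 816 of 2441 windows of 1 Mb were called above and 1165 below by the test used here, shares close to those with it (33.4 and 47.7 %).

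**Figure D1:**
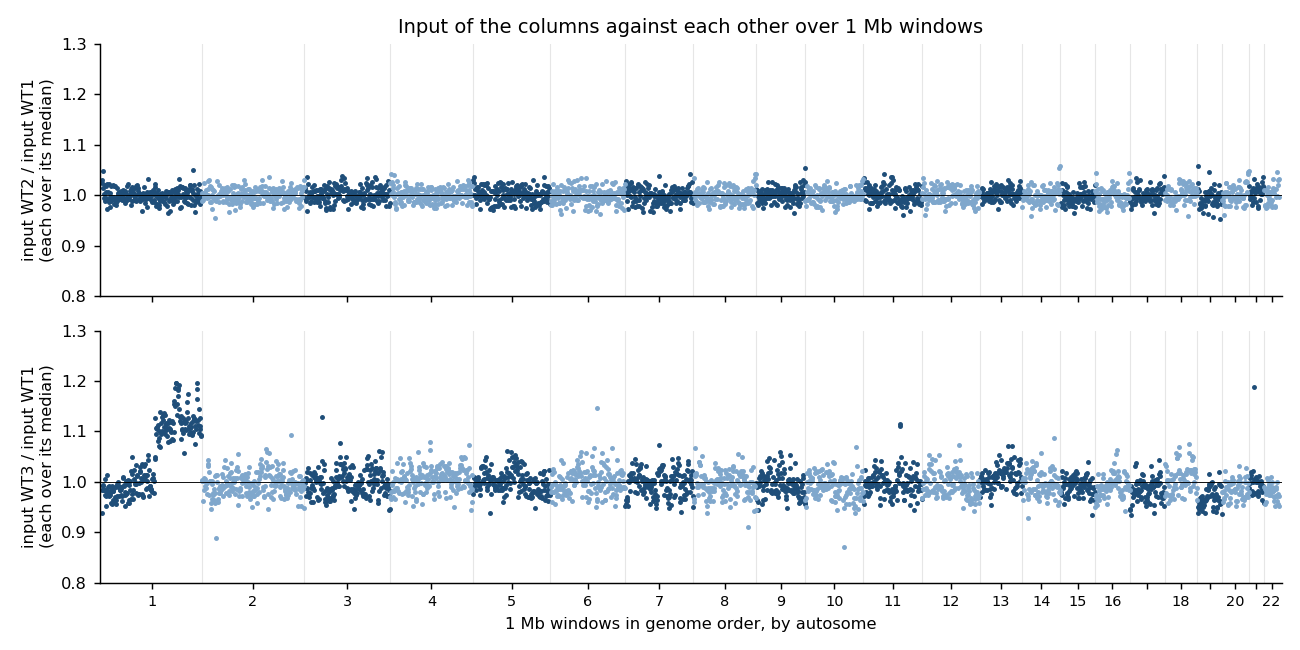
Input reads of WT2 and of WT3 relative to WT1 in each 1 Mb window of the autosomes (y axis, ratio of inputs that were each divided by their median), in genome order (x axis), with colors alternating by chromosome. WT2 stays near 1 throughout, while WT3 lies at a median of 1.11 on the long arm of chromosome 1.

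To show what the base composition of 4 windows at the ends of the distribution looks like, a stretch of 200 bases of each was read from GRCh38 on the plus strand, with G and C in capitals. Each was picked near the middle of its window, outside exons and at close to the GC content of the window, and it is an illustration only. The stretches for the highest value, the lowest value and the highest log2 ratio also had to be made of pieces found once on their chromosome. That for the highest log2 ratio beyond GC content had to occur at more than 1 place. The highest window by value was represented by chr15:74505900-74506099, which overlaps the lncRNA gene UBL7-DT, and the lowest by chr4:45500000-45500199, which holds no gene. The window with the highest log2 ratio was represented by chr17:38494900-38495099, within ARHGAP23. The window with the highest log2 ratio for its GC content was represented by chr1:144505100-144505299. This stretch occurs at 4 places of chromosome 1, and being repeated was a condition of its choice.
Highest value, chromosome 15: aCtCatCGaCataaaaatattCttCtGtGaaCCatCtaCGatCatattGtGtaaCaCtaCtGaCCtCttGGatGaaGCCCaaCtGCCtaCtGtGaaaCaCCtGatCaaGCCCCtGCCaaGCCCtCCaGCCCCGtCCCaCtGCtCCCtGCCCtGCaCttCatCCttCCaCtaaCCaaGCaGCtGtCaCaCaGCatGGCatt
Highest log2 ratio, chromosome 17: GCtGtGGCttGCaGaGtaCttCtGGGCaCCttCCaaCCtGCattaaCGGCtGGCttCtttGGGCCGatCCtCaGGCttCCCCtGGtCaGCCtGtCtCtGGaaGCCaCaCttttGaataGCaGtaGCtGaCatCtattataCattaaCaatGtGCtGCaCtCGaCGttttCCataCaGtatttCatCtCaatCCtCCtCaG
Lowest value and log2 ratio, chromosome 4: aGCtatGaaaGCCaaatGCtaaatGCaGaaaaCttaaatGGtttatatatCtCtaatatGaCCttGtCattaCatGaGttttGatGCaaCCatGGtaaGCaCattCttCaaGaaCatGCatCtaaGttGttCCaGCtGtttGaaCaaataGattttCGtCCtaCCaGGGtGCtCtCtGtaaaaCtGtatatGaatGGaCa
Highest log2 ratio beyond GC content, chromosome 1: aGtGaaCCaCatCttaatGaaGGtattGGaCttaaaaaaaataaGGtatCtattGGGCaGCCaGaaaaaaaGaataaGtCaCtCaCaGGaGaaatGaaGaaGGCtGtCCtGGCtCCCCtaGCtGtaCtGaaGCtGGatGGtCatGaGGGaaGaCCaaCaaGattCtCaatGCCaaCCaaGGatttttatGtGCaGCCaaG
On the strand shown, the stretch from chromosome 15 held 29 G and 71 C and that from chromosome 4 held 35 G and 36 C, and OG can form on either strand.

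Over 2667 windows of 1 Mb, the mean value of the 3 columns ranged from 4.22 to 23.7 reads per bin, with a mean of 7.72 and an SD over windows of 2.21. The 5th and 95th percentiles, 5.05 and 11.6, were 2.303-fold apart. A window was called above or below when its difference from the autosomal mean had an adjusted p under 0.05 in a moderated one-sample test (limma). By this rule 890 windows (33.4 %) were above and 1255 (47.1 %) were below. More simply, 958 windows (35.9 %) were above the autosomal mean in all 3 columns and 1356 (50.8 %) were below it. Neighboring windows had similar values. The correlation of the value with that of the next 100 kb window was 0.813 (26155 pairs), and it was 0.197 at a distance of 10 Mb (23115 pairs). A split of the variance used the 26291 windows of 100 kb that were neither gained nor under 0.2 times the median input. Of this variance, 15.1 % lay between chromosomes, 59.1 % between the 1 Mb windows of a chromosome and 25.8 % within 1 Mb windows. Neighboring windows are not independent, so the number of called windows is not a number of separate loci.

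**Figure D2:**
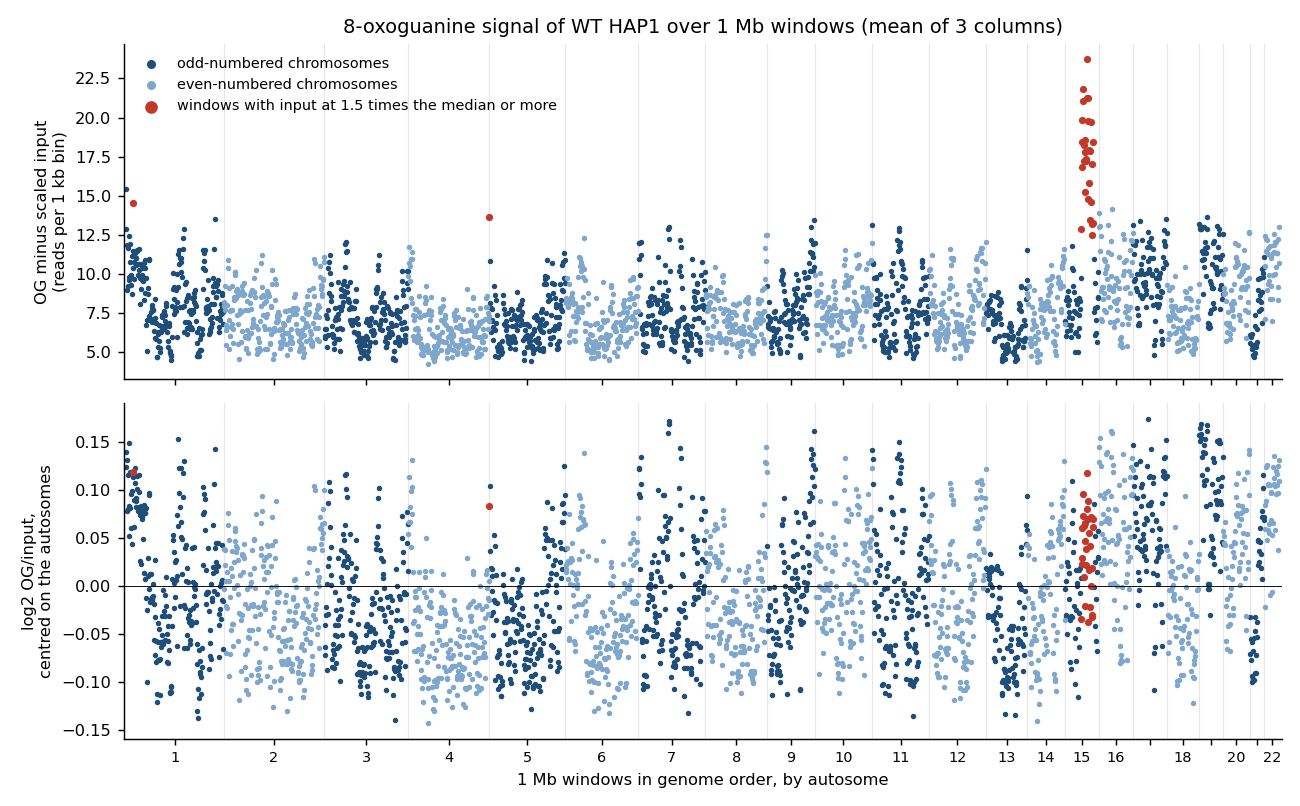
Mean value of the 3 WT columns (upper panel, y axis in reads per 1 kb bin) and mean log2 OG/input (lower panel, y axis centered on the autosomes) of each 1 Mb window in genome order (x axis). The gained windows in red stand out up to 23.7 in the upper panel and lie among the other windows in the lower panel.

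The 10 highest 1 Mb windows by value all lay in the gained run of chromosome 15. The highest was chr15:74000001-75000000, with 22.3 reads per bin in WT1, 22.5 in WT2 and 26.4 in WT3 (adjusted p = 2.72e-12, limma). It was the highest window of every column and holds CCDC33, EDC3, an enhancer of mRNA decapping, and ARID3B, a DNA-binding protein for AT-rich sequences. Next came chr15:66000001-67000000 (MEGF11, SMAD6), with 20.8, 20.3 and 24.3, and chr15:75000001-76000000 (PTPN9, PPCDC, SIN3A), with 20.49, 20.21 and 23.004. SMAD6 is an inhibitor of BMP signaling, and SIN3A is the scaffold of a histone deacetylase complex. Over the 29 windows of the run the value had a mean of 17.5 (12.5 to 23.7), against 7.72 in the other 49 windows of chromosome 15. The log2 ratio of the run was 0.042, and its median was 0.000603 after the part that follows GC content was taken off (44.1 % in the run). The value of the run thus moved with its input.

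Without the gained windows, the highest value was 15.4. It belonged to chr1:2000001-3000000, with 13.8, 17.2 and 15.2 reads per bin in WT1, WT2 and WT3. This window holds TTC34, PRKCZ, an atypical protein kinase C, and SKI, a repressor of TGF-beta signaling, and its input was 1.44 times the median. The second was chr16:30000001-31000000 (BCL7C, ITGAL, SRCAP), with 13.5, 14.6 and 14.3. BCL7C and SRCAP belong to chromatin remodeling complexes, and ITGAL is the alpha chain of the leukocyte integrin LFA-1. The third was chr16:1-1000000 (LMF1, RAB11FIP3, AXIN1), with 13.2, 14.4 and 14.03. It was followed by chr19:18000001-19000000 with 13.5, 12.9 and 14.6, which holds CRTC1, a coactivator of CREB, ELL, an elongation factor of RNA polymerase II, and MAST3. The windows chr17:81000001-82000000 (NPLOC4, BAIAP2, BAHCC1), chr9:136000001-137000000 (NACC2, CCDC187), chr17:17000001-18000000 (MPRIP, RAI1, TOM1L2), chr19:1-1000000 (ARID3A, SHC2, PALM) and chr11:1-1000000 (AP2A2, DEAF1, CHID1) were also among the 10, with means from 13.2 to 13.5. The 10 windows were GC-rich (49.6 to 58.6 %) and held 13 to 48 starts of coding genes each, and 6 of them lay within 3 Mb of an end of their chromosome.

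The lowest 1 Mb window was chr4:45000001-46000000, with 4.09, 4.18 and 4.41 reads per bin in WT1, WT2 and WT3 (adjusted p = 2.65e-08, limma). It was also lowest on the ratio scale, where the log2 ratio was -0.137, -0.146 and -0.146, and no coding gene overlapped it. The next lowest were chr14:42000001-43000000 (mean 4.37) and chr13:86000001-87000000 (4.41). The fourth was chr14:46000001-47000000 (4.41), with MDGA2, a neural adhesion protein, and RPL10L, an intronless copy of a ribosomal protein gene. Windows of chromosomes 4, 5, 13, 7, 6 and 1 followed, from chr4:63000001-64000000 at 4.44 to chr1:105000001-106000000 at 4.48. Of the 10 lowest windows, only that with MDGA2 and RPL10L overlapped a coding gene. Their GC content was 34.1 to 35.3 %, and their input was 0.776 to 0.827 times the median. The lowest windows were close to each other relative to the spread of the columns, and their order differed between columns. Only 1 window was among the lowest 27 (1 %) of all 3 columns, against 23 for the highest 27. Without gained windows, 1 of the lowest 26 and 8 of the highest 26 were shared by all 3 columns.

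On the ratio scale the range was narrower, from 5th to 95th percentile -0.101 to 0.110 in log2 units. On this scale 730 windows (27.4 %) were above the autosomes and 1064 (39.9 %) below (limma). The highest was chr17:38000001-39000000, with 0.167, 0.253 and 0.105 in WT1, WT2 and WT3. It holds ARHGAP23, SRCIN1, an inhibitor of SRC kinase, and SOCS7. Next came chr7:74000001-75000000, with 0.227, 0.167 and 0.124, which holds GTF2IRD1, CLIP2 and GTF2I, genes of the region deleted in Williams-Beuren syndrome. The third was chr19:5000001-6000000, with 0.193, 0.195 and 0.121, which holds PTPRS, a receptor tyrosine phosphatase, KDM4B, a histone demethylase, and RANBP3. The share of repeated stretches was 24.7 % in this window of chromosome 17, 18.3 % in that of chromosome 7 and 0.78 % in that of chromosome 19. The 10 highest lay on chromosomes 7 (3 windows), 9, 16, 17 and 19 (4 windows), and WT3 was the lowest column in 8 of them. The lowest windows on this scale were chr4:45000001-46000000, chr14:42000001-43000000, chr3:166000001-167000000, chr1:189000001-190000000 and chr11:97000001-98000000, from -0.143 to -0.135, and none of these 5 overlapped a coding gene. The chromosome 15 run had log2 ratios from -0.038 to 0.118, within the range of the other windows (-0.143 to 0.175).

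Value and ratio both followed GC content. Of the 2636 windows that were not gained, the 323 windows under 36 % GC had a mean value of 5.21 ± 0.480 (SD, n = 3) and the 114 windows at 50 % or more had 11.9 ± 0.787. In the first class 100 % of the windows were called below and in the second 100 % above, against 47.1 % and 33.4 % of all windows. Between these classes the value rose at every step, with 5.95, 6.81, 7.70, 8.68 and 10.3 in classes that begin at 36, 38, 40, 42 and 45 %. The correlation of the mean value with GC content was 0.861 over 2667 windows (Spearman's rank correlation 0.950), and 0.945 without the gained windows. For the log2 ratio it was 0.946, and 0.917, 0.874 and 0.917 in WT1, WT2 and WT3. For the density of CpG it was 0.791 for the value and 0.856 for the ratio, for G-quadruplex motifs (4 runs of at least 3 G with 1 to 7 bases between them) 0.715 and 0.764, and for starts of coding genes 0.614 and 0.631. All of these rise with GC content, so the windows share base composition and the coefficients are descriptions. The 2.29-fold difference in value between the outer GC classes was the product of an input that was 1.41-fold higher and a value per relative input that was 1.62-fold higher. The ratio of OG to input itself was 1.16-fold higher. A small difference in ratio thus became larger in the value, since the scaled input takes most of the reads away. Input itself correlated with the value at 0.917, and its part in the result was not tested.

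**Figure D3:**
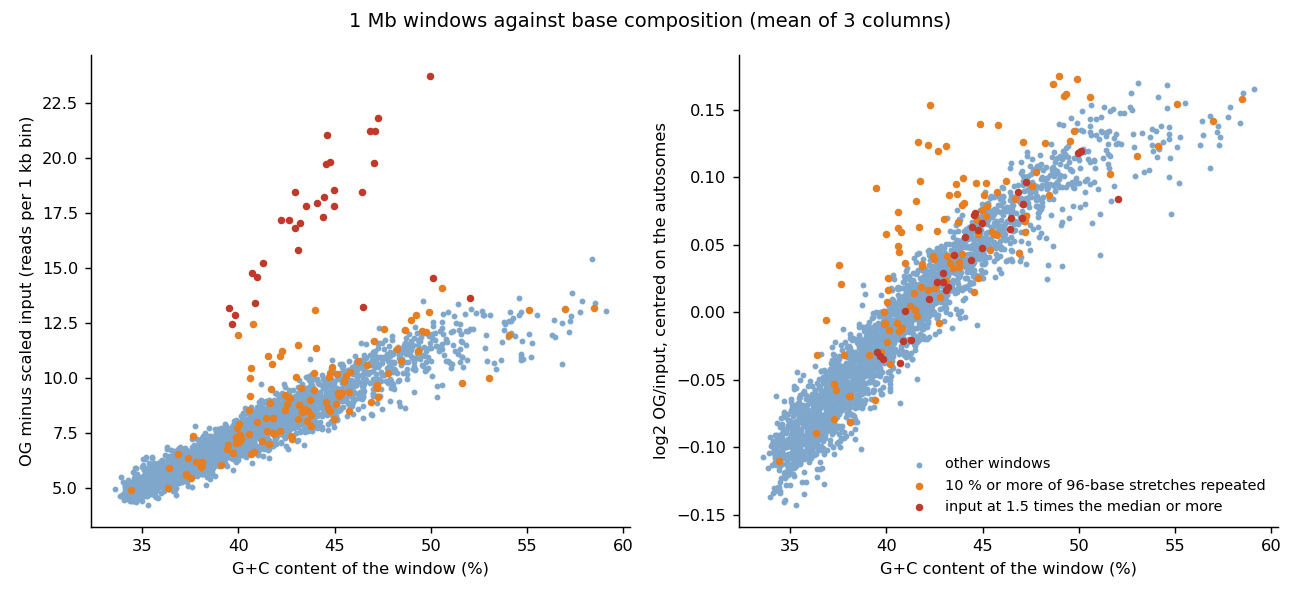
Mean value (left, y axis in reads per 1 kb bin) and mean log2 OG/input (right, y axis) of each 1 Mb window against its GC content (x axis in %). The gained windows in red leave the band in the left panel only, while some windows with repeated sequence in orange lie above the band in the right panel.

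Gene density followed the same gradient over the windows that were not gained. The 340 windows with no start of a coding gene had a mean value of 5.65 ± 0.515 and a GC content of 36.6 %, and 93.8 % of them were called below. The 219 windows with 20 starts or more had 10.6 ± 0.764 and 47.8 %, and 86.8 % were above. The log2 ratio beyond GC content was 0.000241 in the first class and 0.0072 in the second. Among the gene-rich windows, 13 were nonetheless called below, 6 of them on chromosome 11. Olfactory receptor genes, which encode the odorant receptors of the nose, made up most starts in 8 of these 13 windows and 176 of their 358 starts in all. The lowest was chr11:56000001-57000000, with 31 olfactory receptor genes among 32 starts, 36.4 % GC and 4.94, 5.14 and 5.35 reads per bin. Others were chr21:30000001-31000000 with 32 genes of keratin-associated proteins (mean 5.63), chr9:21000001-22000000 with 16 interferon genes (6.31) and chr12:10000001-11000000 with 7 bitter taste receptor genes (6.16). The GC content of the 13 windows was 36.4 to 41.0 %, below the 47.8 % of the gene-rich class. Toward the chromosome ends, the 122 windows among the first 3 of an end had 9.88 ± 0.746 reads per bin and 48.5 % GC, against 7.39 ± 0.660 and 40.2 % in the 2242 windows more than 10 Mb from an end. Of these outer windows, a class chosen after the values had been seen, 77.9 % were called above, against 33.4 % of all 1 Mb windows. Their median log2 ratio beyond GC content was -0.00945, against 0.000819 in the windows more than 10 Mb from an end.

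With the part of the log2 ratio that follows GC content taken off, little of the landscape remained. Only 32 windows (1.2 %) were called above and 14 (0.525 %) below (limma), and the mean correlation between columns was 0.188. Repeated sequence was common among the 32. In 30 of them, 10 % or more of sampled 96-base stretches occurred at more than 1 place of the assembly, as in 118 of all 2667 windows. The median share was 34.6 % in the 32 windows and 1.21 % in all. In such windows a read can be placed at any of several copies, so that the copies cannot be told apart. The highest was chr1:144000001-145000000, where 86.3 % of stretches were repeated, with log2 ratios of 0.179, 0.254 and 0.028 in WT1, WT2 and WT3. It holds SRGAP2B, a duplicated copy of a gene of neuronal migration, and NBPF15 of the NBPF family. Others were chr9:39000001-40000000 (CNTNAP3), chr16:32000001-33000000 and chr16:33000001-34000000 (copies of TP53TG3), 4 further windows of chromosome 1 with genes of the NBPF family, and chr16:18000001-19000000 (NOMO2, SMG1). The columns differed in these windows: WT2 was highest in 9 of the 10 leading windows and WT3 was lowest in 10 of 10. In the 2549 windows with less repeated sequence, 2 were above and 14 below.

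The 14 windows below the level of their GC content held little repeated sequence (0.499 to 3.83 %), and the columns were closer. The lowest was chr17:80000001-81000000, with RPTOR, a subunit of the mTORC1 kinase complex, RNF213 and CCDC40. Its GC content was 51.1 %, and its log2 ratios were 0.041, 0.042 and 0.044, which gave -0.076 relative to windows of the same GC content (adjusted p = 0.00015, limma). Next came chr7:158000001-159000000 with PTPRN2, a protein of secretory vesicles (-0.071), and chr18:79000001-80000000 with ATP9B and NFATC1 (-0.071). The window chr20:16000001-17000000 (KIF16B, MACROD2) had -0.063. Of the 10 lowest, 6 lay on chromosomes 5, 6, 10, 15 or 20 and 5 were called above by value. Those called above all lay within 3 Mb of an end of their chromosome, as did chr6:169000001-170000000, which was not called. A window can thus be high in value and low for its GC content.

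Windows of 100 kb resolved single loci at the cost of precision. By value, 6227 of 26626 windows (23.4 %) were above and 8433 (31.7 %) were below (limma). Without WT1, 5547 were below, the largest change that leaving out a column made. By position alone, 7770 (29.2 %) were above and 11263 (42.3 %) below in all 3 columns. The highest window was chr1:228600001-228700000, with 38.3, 46.3 and 39.1 reads per bin in WT1, WT2 and WT3. It also had the highest log2 ratio, 0.483, 0.492 and 0.263, and its input was 2.59 times the median. It holds the 17 annotated genes of 5S ribosomal RNA, the small RNA of the large ribosomal subunit that RNA polymerase III transcribes from a tandem array. The genes repeat every 2241 bp, and 16 of the 17 are identical. The 37 bins across the genes had 76.3, 97.7 and 74.3 reads per bin at 4.52 times the median input, and the other 55 bins of the window had 12.6, 11.7 and 15.5 at 1.31 times. The bin chr1:228609001-228610000, beside the annotated genes, was the highest of WT2 (176) and WT3 (168). It was counted among the other bins, while the highest bin of WT1 (158) lay across the genes. The array bins also had the higher log2 ratio, 0.514 ± 0.168 against 0.144 ± 0.073, and the higher GC content, 67.8 % against 43.3 %. The window was above the ratio of its GC content (0.276, adjusted p = 4.89e-05, limma). That comparison used the GC content of the whole window, 53.2 %, and not the 67.8 % of the array bins, which had the higher input. The excess was therefore not tested at the GC content of the array. In the window 43.4 % of the sampled stretches were repeated. The number of copies in the cells can exceed that of the assembly, which moves the value but not the ratio.

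The second 100 kb window was chr1:2600001-2700000, over TTC34 and MMEL1, a membrane metallopeptidase, with 26.97, 47.98 and 29.3 at 2.70 times the median input. WT2 was far above the others, and 10 bins held 37.2 to 43.1 % of the value of a column. Its log2 ratio was 0.019, 0.386 and 0.021, and WT2 stood far above the other columns on this scale too. The third was chr5:700001-800000, over the palmitoyltransferase genes ZDHHC11B and ZDHHC11, with 25.6, 30.5 and 29.8 at 2.89 times the median input. The other 7 of the 10 highest lay in the chromosome 15 run, led by chr15:74800001-74900000 with 25.9, 27.5 and 30.3, which holds SCAMP2, LMAN1L and MPI, the phosphomannose isomerase. Without gained windows, the highest were chr1:145300001-145400000, which overlaps NBPF20, with 15.7, 26.6 and 14.7, and 3 windows of chromosome 17 with copies of TBC1D3, a gene family expanded in primates. Of these 3, chr17:37900001-38000000 had 14.8, 22.6 and 15.3. In these 4 windows 89.6 to 94.0 % of the stretches were repeated, and WT2 was the highest column in each. The first without much repeated sequence was chr1:155200001-155300000 (6.51 %), with 12.8, 15.5 and 19.2, which holds CLK2, a kinase of splicing factors, HCN3, a pacemaker channel, and PKLR, the pyruvate kinase of liver and red cells. On the ratio scale, 2466 windows (9.26 %) were above and 3127 (11.7 %) below. After GC content was taken off, 40 (0.15 %) and 6 (0.0225 %) remained, and 36 of the 40 held 10 % or more repeated stretches.

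The 6 lowest 100 kb windows by value were also those with the least input, under 0.2 times the median. In chr3:162800001-162900000, input was 0.000938 times the median and the value was 0.084, 0.025 and -0.015. In chr11:46400001-46500000, all of it within AMBRA1, a regulator of autophagy, input was 0.033 times and the value 0.468, 0.185 and 0.754. In chr4:68500001-68600000, over UGT2B17, an enzyme that conjugates steroid hormones, input was 0.118 times and the value 0.548, 1.38 and 0.924. The others were chr22:11400001-11500000, chr10:39700001-39800000 and chr10:39800001-39900000. The last 3 had 0.101 to 0.131 times the median input, and 82.5 % and 74.1 % of the stretches in the windows of chromosome 10 were repeated. No ratio was computed for these 6 windows. Among windows with input, chr18:43700001-43800000 had the lowest log2 ratio, -0.201, -0.316 and -0.307, at 0.866 times the median input and a value of 3.64, 2.54 and 2.22. It was followed by chr4:167500001-167600000, with -0.252, -0.280 and -0.273, and chr6:92400001-92500000, with -0.220, -0.253 and -0.287. No coding gene overlapped these 3 windows, and their GC content was 34.7 to 35.4 %. The fourth, chr4:65500001-65600000, overlapped EPHA5, an ephrin receptor of axon guidance, with -0.358, -0.206 and -0.195.

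The 3 columns gave closely similar landscapes at 1 Mb. The correlation of the value was 0.968 for WT1 and WT2, 0.966 for WT1 and WT3 and 0.956 for WT2 and WT3 (2667 windows). At 100 kb it was 0.825, 0.838 and 0.798 (26626 windows). For the log2 ratio it was 0.840 to 0.890 at 1 Mb and 0.454 to 0.556 at 100 kb. The columns share base composition and repeats, and R1 and R2 of clone C11 are both among their samples. These coefficients are therefore no measure of independent replication. The median 1 Mb window held 20586 to 29918 OG reads, depending on the column. The median SD between columns was 0.347 reads per bin once each column was centered, against 0.186 from counting error alone. At 100 kb these were 0.919 and 0.585. The spread between columns was larger than this lower limit of the counting error at both sizes. The highest 1 % of windows were shared between pairs of columns at 88.9 to 92.6 % (1 Mb) and 72.9 to 74.1 % (100 kb), and the lowest 1 % at 18.5 to 29.6 % and 9.40 to 10.9 %. Without gained windows, the shared part of the highest 1 % fell to 34.6 to 57.7 % at 1 Mb. Single extreme windows outside the gained run therefore depended on the column, while broad classes by GC content had the same order in all 3.

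Averaged over whole autosomes, the value was highest on chromosome 15, with 10.5, 10.9 and 12.5 reads per bin in WT1, WT2 and WT3 (11.3 ± 1.05, SD, n = 3). Chromosome 22 (10.5 ± 0.724), chromosome 19 (10.4 ± 0.718), chromosome 17 (9.68 ± 0.731), chromosome 16 (9.23 ± 0.695), chromosome 20 (8.80 ± 0.733) and chromosome 1 (8.29 ± 0.969) followed. The lowest were chromosome 5 (6.94 ± 0.615), chromosome 13 (6.67 ± 0.625) and chromosome 4 (6.49 ± 0.557). The SDs hold the difference in level between columns, which kept the same order: the rank correlation of the 22 autosomes was 0.990 to 0.998 between pairs of columns. Each of the first 7 ranks was held by the same chromosome in all 3 columns. Some neighbors did not keep their order. Chromosomes 9, 10 and 11 (7.76, 7.76 and 7.74), 14 and 7, and 18 and 5 changed places between columns. The other neighbors kept their order in all 3 columns. No test was made of these differences, and a sign permutation of 3 columns cannot go below p = 0.25 (exact).

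The order changed most for chromosome 15 on the ratio scale, where it ranked 6 with 0.0208 ± 0.00155. Without its gained run its mean value was 7.72 ± 0.681 and its rank 10. On the ratio scale chromosome 19, the most gene-rich autosome (26.9 coding genes per Mb), was highest with 0.119, 0.094 and 0.089 in WT1, WT2 and WT3. Chromosomes 22 (0.087), 17 (0.068), 16 (0.062) and 20 (0.041) came next, and 13 (-0.036) and 4 (-0.046) were last. WT1 spread the autosomes more widely than the other columns at both ends of this order. Chromosome 1, where WT3 held more input, ranked 7 on both scales in every column. The correlation of the ratio with GC content over the 22 autosomes was 0.994. On chromosome 6 the highest was chr6:43000001-44000000 (12.3; PTK7, ZNF318, XPO5) and on chromosome 3 chr3:49000001-50000000 (12.1; BSN, DAG1). Several highest windows were the terminal ones, as on chromosome 22 with SHANK3 (13.0) and on chromosome 21 with PCNT (11.1). The lowest window of chromosome 10 (4.83) overlapped PCDH15, a gene of hair cells of the inner ear, and that of chromosome 19, among zinc finger genes (6.55), was higher than the lowest window of all other autosomes except chromosome 22 (6.99).

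**Figure D4:**
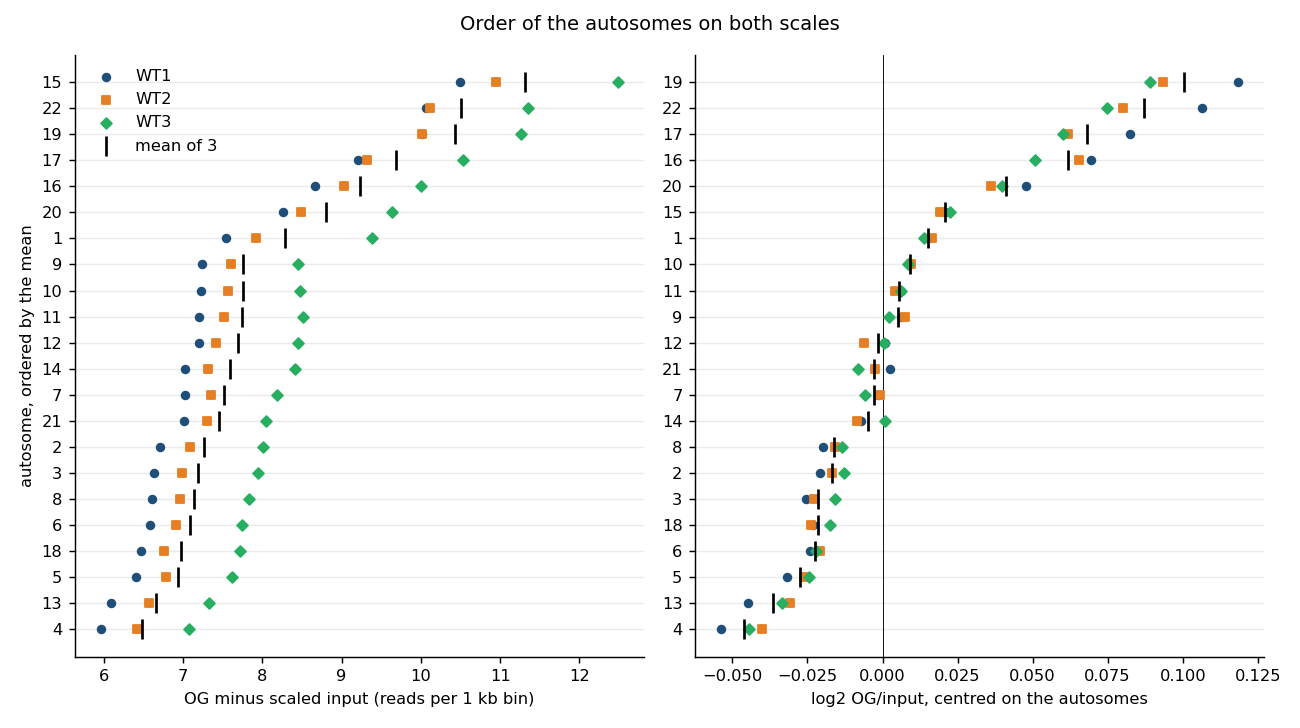
Mean value (left, x axis in reads per 1 kb bin) and log2 OG/input (right, x axis) of each autosome in WT1, WT2 and WT3, with the mean of the 3 columns as a bar and the autosomes ordered by that mean (y axis). Chromosome 15 is first on the left at 11.3 and sixth on the right.

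Genes were then grouped by family or role, and the 100 kb windows that hold the start of a member were described. The lists were chosen with earlier results of these data known, and members that share a window or cluster are not independent, so counts are set beside the background of 23.4 % above and 31.7 % below and no test was made. The median value was 7.24 over all windows. That background includes windows with no start of a coding gene, so it differs from the groups in this respect. Among 22 groups, the windows of DNA glycosylases and their partners had the highest median, 12.1, with 10 of 13 above and none below. The 10 include the windows of NEIL1 and MPG, at 2.52 and 1.72 times the median input. Windows of housekeeping genes had 11.7 (7 of 9 above), those of ribosomal protein genes 11.2 (55 of 74 above, 1 below), and those of HOX genes, which pattern the body axis, 10.4 (8 of 10 above). Proteasome subunits (10.3), subunits of respiratory complex I (10.3), keratins (10.2) and antioxidant genes (10.2) came next. These groups lie in GC-rich windows, with medians of 45.2 to 49.1 % against 39.9 % in all windows. At the other end were genes of neuronal adhesion and signaling (5.37, 14 of 17 below), UGT genes (5.40, 7 of 12 below), long genes of fragile sites (6.23, 8 of 16 below), olfactory receptors (6.25, 17 of 163 above and 84 below) and bitter taste receptors (6.32). Their GC medians were 35.5 to 39.3 %. Beyond GC content, the median log2 ratio of every group lay within 0.05 of 0.

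**Figure D5:**
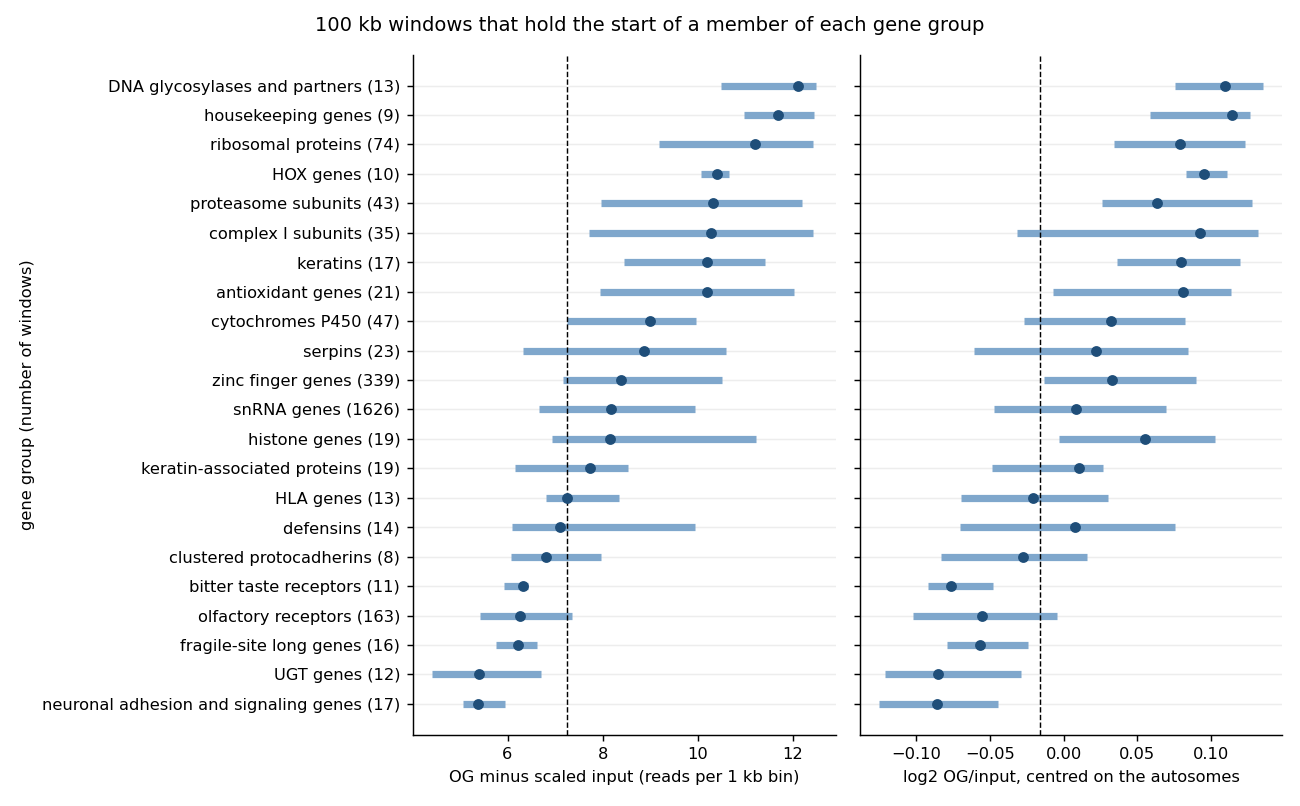
Median (points) and interquartile range (bars) of the value (left, x axis in reads per 1 kb bin) and of log2 OG/input (right, x axis) over the 100 kb windows that hold the start of a member of each gene group (y axis, number of windows in parentheses). The dashed lines mark the median of all windows, 7.24 on the left, and DNA glycosylases and the genes of neuronal adhesion and signaling stand at the ends.

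Among the genes of OG repair, the window of OGG1 (chr3:9700001-9800000) had 12.5, 10.97 and 13.3 reads per bin in WT1, WT2 and WT3, above the autosomal mean (adjusted p = 1.42e-06, limma). That of MUTYH (chr1:45300001-45400000) had 7.29, 10.2 and 9.83 and was not called (adjusted p = 0.0663, limma), as WT1 was near the mean. The window of NUDT1 (chr7:2200001-2300000) had 10.3, 12.8 and 14.4. The endonuclease VIII-like glycosylases, which remove further oxidized bases, were spread over the range. NEIL1 lay in the gained run (23.01, 20.49 and 22.98 at 2.52 times the median input), NEIL2 had 11.1, 9.40 and 12.4, and NEIL3 had 7.12, 6.78 and 7.12. The highest ratio of the group belonged to NTHL1 (log2 ratio 0.189 ± 0.042), whose product removes oxidized pyrimidines, with 14.1, 14.5 and 15.2 reads per bin at 60.9 % GC. MPG, the glycosylase for alkylated bases at the end of chromosome 16, had 14.7, 17.7 and 18.4 at 1.72 times the median input. APEX1, which cuts the abasic site that a glycosylase leaves, had 10.2, 10.2 and 11.4. TDG (7.53, 7.88 and 7.11) was not called. The GC content of these windows ran from 38.2 % for NEIL3 to 60.9 % for NTHL1.

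Antioxidant genes were described in the same way, and 14 of their 21 windows were above and none below. The highest were PRDX2, a peroxiredoxin of red cells (13.1, 12.8 and 15.7), HMOX1, the inducible heme oxygenase (12.5, 12.2 and 16.0), KEAP1, the sensor that holds NRF2 in check (12.2, 13.9 and 13.2), and GPX4, the peroxidase of lipid peroxides (13.7, 12.1 and 12.7). Not called were NFE2L2, which encodes NRF2 (7.77, 8.42 and 7.66), SOD1 (9.05, 8.43 and 8.95), SOD2 (5.54, 8.22 and 7.90), CAT, which encodes catalase (7.28, 6.91 and 9.41), TXN, GCLC and GCLM. Among housekeeping genes, ACTB had the highest window (14.9, 12.9 and 16.1, log2 ratio 0.223 ± 0.063), and GAPDH had 11.4, 11.1 and 14.8. TBP was near the mean (6.98, 7.72 and 7.97).

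Among the HOX clusters, the window with most of HOXA (chr7:27100001-27200000) had 11.7, 11.1 and 13.9 and that with most of HOXD (chr2:176100001-176200000) had 8.32, 12.5 and 12.7, where WT1 was lower than the others. The window with HOXD13 (7.59, 8.23 and 7.39) was not called. Of the genes of neuronal adhesion and signaling, KCNH7, a potassium channel, had the lowest window (4.39, 3.38 and 3.62, log2 ratio -0.183 ± 0.055). PCDH10 and PCDH20, which encode protocadherins, had 6.07, 4.02 and 3.57 and 3.73, 5.33 and 4.75. GABRG1, a subunit of GABA receptors, had 2.96, 4.52 and 6.53, so the columns differed widely there. NRXN3, a presynaptic neurexin, had the highest window in value (7.65, 8.75 and 10.3) and in GC content (44.5 %). Among the long genes of fragile sites, the window at the start of PTPRD was lowest (3.60, 5.14 and 5.41) and that of WWOX highest (7.27, 7.58 and 9.76). FHIT (6.63, 6.21 and 6.35) was not called. The windows of these long genes cover their starts only. Members of large families such as olfactory receptors and UGT genes share sequence, so their reads can be split between copies.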

How the data were processed

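OG-seq was analysed from 1 deposited table that holds, per 1 kb bin of GRCh38, a score: the OG reads minus input reads that the authors scaled and subtracted. Reads had been trimmed with cutadapt 2.8 and aligned with Bowtie2 2.3.5.1, per the labels. Negative scores were kept. The 9 value columns of other genotypes were not used. Whole OG and input reads were recovered by solving each score for 2 scaled input runs, and 12 to 17 bins per column were not solved. Bins with under 500 called bases were left out (28780 of 2687773 autosomal bins), and windows needed 50 % of their bins. Each window was tested against the mean of the autosomes in a one-sample moderated test (limma 3.58.1, R 4.3.3, Benjamini-Hochberg adjusted p under 0.05), after a check on simulated data. GC residuals are deviations of the log2 ratio from the medians of 40 GC classes. Windows with input under 0.2 times the median got no ratio. Genes came from GENCODE 44. Named windows were the 10 highest and 10 lowest per scale and size, and the extremes of each autosome. The members and lists were chosen with earlier results of these data known. Alternatives covered window statistics, scaling, filters, grid, test, and each column left out. Some items are not reported here.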

Additional observations from a re-analysis of the deposited data

How the results depend on the processing

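The counts of called windows kept within 1.5 times of their values under every alternative run, with these exceptions. With the value corrected for GC content, 250 windows of 1 Mb were above and 423 below, and 599 and 385 of 100 kb. With the log2 ratio, 2466 windows of 100 kb were above and 3127 below. With the log2 ratio corrected for GC content, added after the data were seen, 32 and 14 of 1 Mb and 40 and 6 of 100 kb remained past the threshold. Leaving out a column gave 5547 to 7202 windows of 100 kb below.

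The mean correlation between columns at 1 Mb (0.963) was 0.952 with medians of bins, 0.953 with every window or without gained windows, 0.865 for the ratio, 0.866 with GC correction, 0.188 with both, and 0.956 to 0.968 when a column was left out. At 100 kb (0.820) it was 0.762 with medians, 0.502 for the ratio, 0.542 with GC correction, 0.784 without gained windows, 0.0736 with ratio and GC correction, and 0.798 to 0.838 when a column was left out. The SD over 1 Mb windows (2.21) was 2.02 with negative bins at 0, 0.286 with each column divided by its mean, 0.065 for the ratio, 1.102 with GC correction, 1.94 without gained windows and 0.0187 with ratio and GC correction. The correlation with GC content (0.861) was 0.847 with negative bins at 0, 0.840 with every window, 0.946 for the ratio, 0.945 without gained windows, 0.0666 with GC correction and 0.0322 with both. The mean rank correlation of the autosomes between columns (0.994) was 0.987 with medians and for the ratio, 0.989 with negative bins at 0, with windows of 90 % of their bins or without gained windows, 0.990 on a shifted grid, 0.847 with GC correction, 0.426 with both, and 0.992 to 0.997 when a column was left out.

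Of 2213 values of 152 named windows, 2027 kept direction and call, 163 lost the call, 7 gained it and 16 reversed. With GC correction of the value, 6 windows fell below: chr10:132000001-133000000 (-1.43), chr14:105000001-106000000 (-0.73), chr17:80000001-81000000 (-1.16), chr18:79000001-80000000 (-1.90), chr7:158000001-159000000 (-1.97) and chr8:1000001-2000000 (-2.21). All but the window of chromosome 14 also did so on the log2 ratio with GC correction (-0.057, -0.076, -0.071, -0.071 and -0.062), and chr10:39000001-40000000 turned positive (0.095). On the log2 ratio, chr17:46400001-46500000 (0.22, and 0.27 with GC correction), chr21:44100001-44200000 (0.31) and chr9:61500001-61600000 (0.13) turned positive in the mean of the columns. In that of chromosome 17, WT1 and WT2 had 0.340 and 0.323 but WT3 had -0.006. The windows held 81.7, 79.7 and 37.4 % repeated stretches, at 0.501, 0.458 and 0.232 times the median input. Beyond these constructions the cause was not tested. No paired analysis was possible because a single genotype was used and the numbers shared by pull-down and input samples in the labels are not linked to columns, in which OG and input were already combined.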
